A study of Mus musculus with 32 samples.

Results

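The DNA replication and S phase genes described here are 31 genes taken by gene symbol from a list fixed by name, and each was found once among the 54087 genes that every table lists. The rule uses no measured value, but the list was drawn up with earlier results of these data known. All 31 were among the 14313 genes that passed the filter on low counts and were tested. They fall into 7 groups by the role of their products: the MCM helicase (Mcm2 to Mcm7), origin licensing (Orc1, Cdc6, Cdt1), helicase activation (Cdc45, Gins1, Gins2, Gins3, Mcm10), the fork and the lagging strand (Pola1, Prim1, Pole, Pcna, Rfc3, Rpa2, Fen1, Lig1), nucleotide supply (Rrm1, Rrm2, Tyms), chromatin assembly and histone mRNA (Chaf1a, Chaf1b, Slbp) and regulators (E2f1, E2f2, Ccne2).

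As background, a cell prepares to copy its DNA in G1 phase, when the origin recognition complex, Cdc6 and Cdt1 load rings of Mcm2 to Mcm7 onto origins. At the start of S phase, Cdc45 and the GINS complex join each ring and turn it into an active helicase, behind which the polymerases, the clamp Pcna and its loader copy both strands, while Fen1 and Lig1 finish the short fragments of the lagging strand. Many of these genes are transcribed under the control of E2F factors, which the retinoblastoma protein family holds back in resting lymphocytes and cyclin-dependent kinases release after stimulation through the T cell receptor.

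The cells were regulatory T cells (Tregs), the suppressive CD4 T cells that express the transcription factor Foxp3, purified by GFP from C57BL/6 mice with a Foxp3-IRES-GFP knock-in, aged 2.5 months. All groups carried that allele. RNA came from resting cells (3 libraries) or from cells cultured for 18 h or 36 h in wells coated with anti-CD3 and anti-CD28, to which mouse IL-2 had been added at 10 ng/ml. The cultures had no agonist (control, 3 libraries at each time) or an agonist of 1 receptor of the tumour necrosis factor superfamily. For TNFR2 this was STAR2, also named TNC-sc(mu)TNF80, at 12 ng/ml, for 4-1BB the antibody 3H3 at 10 µg/ml, for DR3 TL1A at 12 ng/ml and for OX40 its ligand OX40L at 100 ng/ml, each with 3 libraries per time except OX40 at 18 h, which had 2. Doses were not matched between agonists. Every cultured group was stimulated, so in a comparison with resting cells the antibodies, IL-2, culture and time cannot be told apart.

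Levels are given in CPM, counts scaled to a common library size. Library totals were 11880270 to 38083925 expected counts. The lowest count of any of the 31 genes was 16, for Ccne2 in a resting library, and the lowest in a cultured library was 218, for Gins3. No label says whether replicates came from separate animals or cultures, so p-values measure the spread between these samples only. The Treg and T cell markers (Foxp3, Il2ra, Ctla4, Ikzf2, Cd4, Cd3e) summed to 3409 to 3626 CPM at rest and 4610 to 6066 CPM in culture. None of the 6 was at 0 in any group. They did not move together: in controls against rest, Il2ra (log2 fold change 2.43 at 18 h and 2.26 at 36 h) and Ctla4 (0.93 and 0.96) were called higher at both times, and Cd4 (-0.91 and -0.88) and Cd3e (-1.18 and -1.39) lower. Foxp3 was higher at 18 h (0.16) and lower at 36 h (-0.50), and Ikzf2 was not called at 18 h (0.09) and was lower at 36 h (-0.48). An RNA that the tables list at a ribosomal RNA locus, called the ribosomal locus transcript here, exceeded 10000 CPM in 6 libraries, namely control at 18 h replicates 1 and 2, TNFR2 at 18 h replicate 1, TNFR2 at 36 h replicate 1, DR3 at 36 h replicate 3 and OX40 at 36 h replicate 2.

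Promoter sequences of 26 of the 31 genes were matched by symbol in RefSeq (GRCm38.p6, 250 bases before to 50 after each annotated start), where letters bound by E2F factors could be looked for. The letters searched were TTTCCCGC, TTTGGCGC, TTTCGCGC and TTTGCCGC on both strands, with overlapping matches counted separately. A match was found for 12 of the 26 genes (46.2%), beside 2.61% of all 27025 genes in that table, 3.29% of the 17491 protein-coding ones and 4.81% of the protein-coding ones with a promoter GC content of at least 55%. The 12 genes were Mcm3, Mcm5, Mcm6, Mcm7, Orc1, Cdc6, Cdt1, Gins3, Pola1, Rfc3, Lig1 and E2f2. A CCAAT box (CCAAT) was found for 19 of the 26, beside 42.3% of protein-coding genes. The CHR letters TTTGAA, typical of late cell cycle genes, were found for 5 of the 26 and 18.5% of protein-coding genes. Among 15 genes of G2 phase and mitosis, 13 had a RefSeq promoter, of which 1 held the E2F letters, 12 a CCAAT box and 9 the CHR letters. Of 55 other replication genes with a RefSeq promoter, 18 (32.7%) held the E2F letters, 26 a CCAAT box and 12 the CHR letters. A match of letters is a description and does not show that a factor binds there. Stretches of 100 bases upstream of the start are printed for 3 genes with E2F letters and 3 without any in that stretch, with the matches in capitals, to show how the matches lie in 3 genes that hold them (Mcm6, Mcm5, Pola1), beside the same length in Mcm2, Rrm2 and E2f2. These 6 were chosen after their values were seen.
Mcm6, chr1:128359726-128359825, minus strand: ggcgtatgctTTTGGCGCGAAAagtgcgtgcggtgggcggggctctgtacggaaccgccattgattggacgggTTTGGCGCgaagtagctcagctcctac
Mcm5, chr8:75109339-75109438, plus strand: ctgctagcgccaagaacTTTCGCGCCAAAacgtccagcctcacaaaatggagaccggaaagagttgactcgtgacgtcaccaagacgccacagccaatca
Pola1, chrX:93632206-93632305, minus strand: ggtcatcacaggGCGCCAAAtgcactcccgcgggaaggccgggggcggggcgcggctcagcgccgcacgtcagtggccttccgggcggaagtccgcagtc
Mcm2, chr6:88898801-88898900, minus strand: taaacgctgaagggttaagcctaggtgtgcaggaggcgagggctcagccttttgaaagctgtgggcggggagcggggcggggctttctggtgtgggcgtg
Rrm2, chr12:24708134-24708233, plus strand: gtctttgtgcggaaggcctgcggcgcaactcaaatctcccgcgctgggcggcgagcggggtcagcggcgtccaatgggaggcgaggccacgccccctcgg
E2f2, chr4:136172154-136172253, plus strand: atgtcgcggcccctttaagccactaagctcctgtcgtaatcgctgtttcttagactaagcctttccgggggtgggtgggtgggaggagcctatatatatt

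In Mcm6 and in Mcm5, 2 matches on opposite strands overlapped, so their capitals run together. The Mcm2 and Rrm2 windows of 300 bases held no E2F match, and the single match of E2f2 began 39 bases after its first annotated start, outside the stretch printed. From rest to 18 h, the median log2 fold change was 2.35 over the 12 with a match and 2.63 over the 14 without, and from 18 h to 36 h it was 0.45 and 0.49, with no test made. The median with a match was the lower one in both steps.

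After 18 h of stimulation without agonist, 30 of the 31 genes were higher than in resting Tregs and 1, E2f2, was lower. A gene was called when its adjusted p was below 0.05 in edgeR's quasi-likelihood test over all 14313 genes, of which 40.9% were called higher and 40.1% lower in this comparison. The median log2 fold change of the 31 was 2.58, beside -0.01 over all genes tested, and all but E2f2 rose at least 2-fold. In 36 h controls against rest, 31 of 31 were higher (median 3.09, range 0.55 to 5.73), where 42.4% of all genes were called higher and 42.1% lower. In bulk RNA of this kind, a change in how many cells express a gene and a change in RNA per cell cannot be told apart.

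MCM helicase genes rose by similar amounts, between 2.20 and 3.05 on the log2 scale. Mcm3, a ring subunit, had 58.3, 63.3 and 58.0 CPM in the 3 resting libraries and 487, 502 and 499.8 CPM at 18 h (log2 fold change 3.05 ± 0.045 (SE), adjusted p = 2.46e-45), the largest rise of the 6. Mcm6, another ring subunit, had 154, 145 and 149.8 CPM at rest and 678, 692 and 689 CPM at 18 h (log2 fold change 2.20 ± 0.037 (SE), adjusted p = 2.21e-43), the smallest. Every 18 h library lay above every resting library for both genes. The other 4 ring genes had log2 fold changes of 2.36 (Mcm2), 2.21 (Mcm4), 2.92 (Mcm5) and 2.24 (Mcm7).

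Licensing genes differed more widely. Orc1, the origin recognition subunit, was barely counted at rest (1.31, 1.66 and 1.33 CPM) and reached 43.1, 44.5 and 44.6 CPM at 18 h (log2 fold change 4.92 ± 0.10 (SE), adjusted p = 1.36e-39), the largest rise of the 31 genes. Cdc6, the MCM loader, rose by 3.99 on the log2 scale. Cdt1, which delivers the ring to the loader, was present at rest (31.1, 33.8 and 34.9 CPM) and rose to 87.0, 85.6 and 83.5 CPM (log2 fold change 1.36 ± 0.059 (SE), adjusted p = 2.64e-25). The resting and 18 h libraries of both Orc1 and Cdt1 did not overlap.

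Among the helicase activators, Mcm10, a replisome factor that promotes origin firing, went from 3.45, 2.63 and 2.97 CPM at rest to 67.8, 69.4 and 69.7 CPM (log2 fold change 4.52 ± 0.080 (SE), adjusted p = 2.41e-42). Gins3, a GINS subunit, moved least, from 8.14, 7.72 and 7.12 to 17.6, 16.6 and 16.4 CPM (log2 fold change 1.14 ± 0.090 (SE), adjusted p = 4.63e-16). Again no 18 h library fell within the range of the resting ones. Cdc45 rose by 3.55, Gins1 by 2.84 and Gins2 by 3.51 on the log2 scale, so the GINS subunits did not rise equally.

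All 8 fork and lagging strand genes rose. Pole, the catalytic subunit of the leading strand polymerase, had 19.8, 19.4 and 19.6 CPM at rest and 149.5, 156 and 159 CPM at 18 h (log2 fold change 2.98 ± 0.059 (SE), adjusted p = 1.84e-38). Rpa2, a subunit of the single-strand binding protein, had 25.8, 26.2 and 23.4 CPM at rest and 79.4, 75.2 and 78.1 CPM at 18 h (log2 fold change 1.62 ± 0.062 (SE), adjusted p = 6.28e-28). These were the largest and the smallest rise of the group, and neither gene's groups overlapped. Log2 fold changes of the others were 1.91 for the clamp Pcna, 2.29 for the clamp loader subunit Rfc3, 2.41 for the ligase Lig1, 2.48 for the polymerase alpha subunit Pola1, 2.58 for the primase Prim1 and 2.68 for the flap nuclease Fen1.

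For nucleotide supply, Rrm2, the small subunit of ribonucleotide reductase, rose from 10.00, 13.0 and 11.4 CPM to 124, 133 and 131 CPM (log2 fold change 3.49 ± 0.071 (SE), adjusted p = 1.61e-34). Tyms, which makes thymidylate, rose from 13.9, 12.4 and 11.9 to 64.2, 67.4 and 62.7 CPM (log2 fold change 2.34 ± 0.069 (SE), adjusted p = 4.62e-33), and the large reductase subunit Rrm1 by 2.78 on the log2 scale. Among the chromatin genes, Chaf1a, the large subunit of the histone chaperone CAF-1, went from 8.41, 8.03 and 9.38 to 90.8, 94.3 and 97.9 CPM (log2 fold change 3.46 ± 0.067 (SE), adjusted p = 6.84e-41). Slbp, which binds the stem-loop of replication-dependent histone mRNAs, went from 47.4, 44.5 and 47.2 to 118, 114 and 114 CPM (log2 fold change 1.32 ± 0.043 (SE), adjusted p = 2.26e-31), and the CAF-1 subunit Chaf1b rose by 2.20. For each of these genes the 18 h libraries all lay above the resting ones.

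Regulators split. Ccne2, cyclin E2, the partner of the kinase that starts S phase, had 1.10, 1.47 and 1.80 CPM at rest and 23.8, 22.4 and 22.4 CPM at 18 h (log2 fold change 3.98 ± 0.20 (SE), adjusted p = 4.02e-16). E2f1, an activating E2F factor, rose by 3.20 on the log2 scale. E2f2, the related factor, went the other way, from 50.9, 47.9 and 53.2 CPM at rest to 32.6, 29.7 and 29.1 CPM at 18 h (log2 fold change -0.73 ± 0.061 (SE), adjusted p = 3.02e-15). All 3 of its 18 h libraries lay below all 3 resting libraries, the reverse of every other gene in the set.

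**Figure D1:**
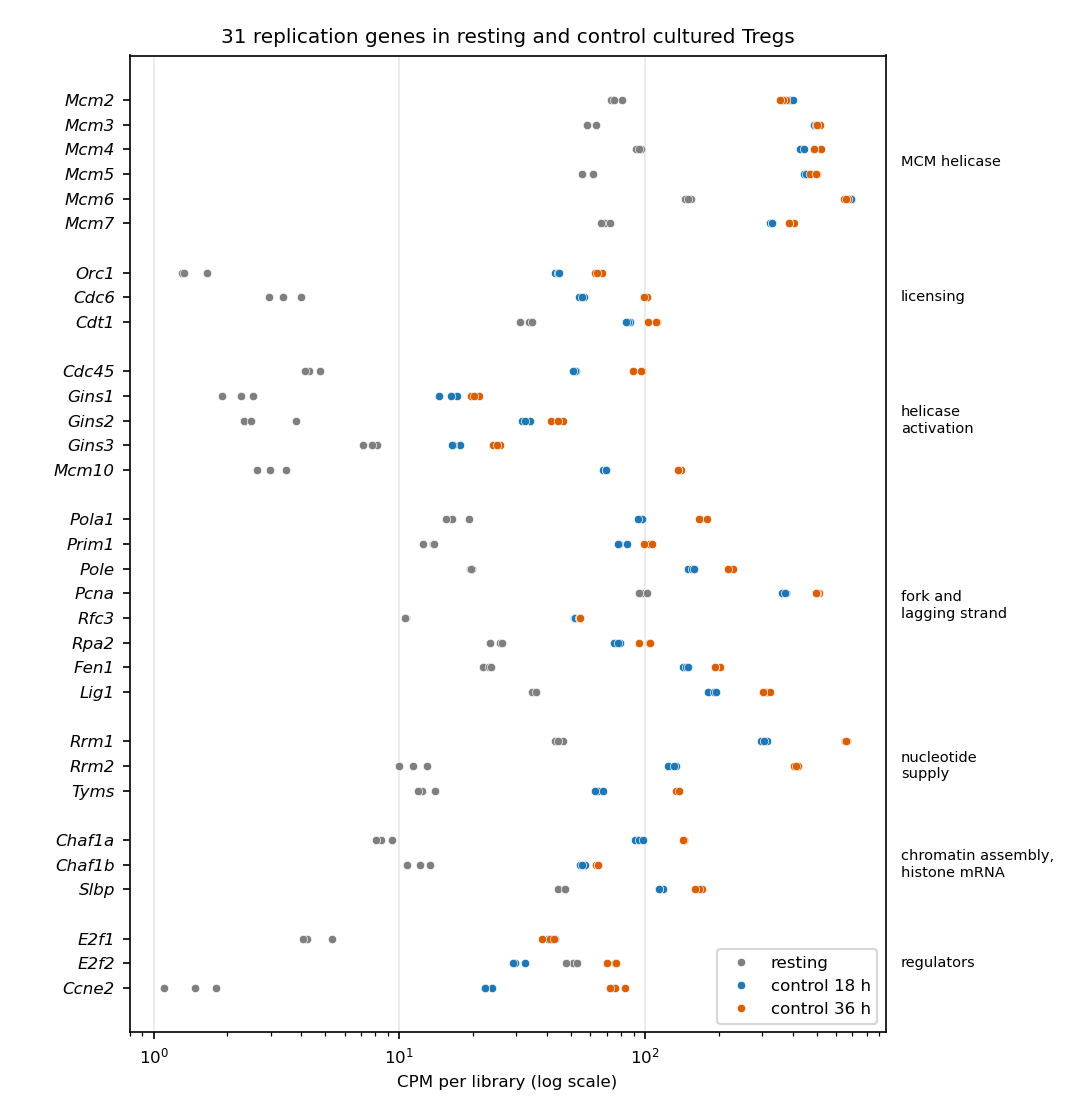
CPM of each of the 31 genes (rows, grouped by role) in the 3 resting, 3 control 18 h and 3 control 36 h libraries, 1 point per library, on a log axis. Points of the cultured libraries lie to the right of the resting ones for all genes except E2f2, whose 18 h libraries (29.1 to 32.6 CPM) lie to the left; some points overlap, as for E2f1 at 18 h and 36 h.

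Markers of other cell types were also higher at rest than in culture. All 3 B cell markers (Cd79a, Cd79b, Ms4a1) were called lower at 18 h, and their sum was 13.4 to 15.7 CPM at rest, 4.06 to 4.45 in 18 h controls and 3.80 to 4.26 in 36 h controls. The 5 myeloid markers (Lyz2, Csf1r, Itgam, Adgre1, Cd14) summed to 7.93 to 9.01 CPM at rest, 0.163 to 1.18 at 18 h, where Itgam and Cd14 were at 0 in all libraries, and 0.139 to 0.359 at 36 h. The 4 of them that were tested were called lower. CD8 T and NK cell markers (Cd8a, Cd8b1, Klrb1c, Ncr1, Klrd1) summed to 14.1 to 16.3 CPM at rest, 6.78 to 6.995 at 18 h and 6.74 to 7.75 at 36 h, all 3 tested being called lower, with Ncr1 at 0 in every library. Erythroid markers (Hbb-bs, Hbb-bt, Hba-a1, Alas2) summed to 1.78 to 4.28 CPM at rest and at most 0.814 in the controls. Their part in the comparison with rest was not tested.

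Between 18 h and 36 h, 26 of the 31 genes rose further in control cultures, 1 (Mcm2) fell and 4 (Mcm3, Mcm6, Rfc3, E2f1) were not called, where 25.6% of all genes were called higher and 26.6% lower. The median log2 fold change of the 31 was 0.45, beside -0.02 over all genes. Only 5 genes changed at least 2-fold, namely Ccne2, Rrm2, E2f2, Rrm1 and Tyms, 3 of which supply deoxynucleotides. The MCM genes, which had risen 4.59-fold to 8.28-fold by 18 h, stayed within log2 fold changes of -0.10 to 0.26.

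Ccne2 went from 23.8, 22.4 and 22.4 CPM at 18 h to 75.8, 83.0 and 72.0 CPM at 36 h (log2 fold change 1.75 ± 0.091 (SE), adjusted p = 5.45e-15). Rrm2 reached 419.9, 403 and 412 CPM at 36 h (log2 fold change 1.67 ± 0.048 (SE), adjusted p = 6.25e-28). Tyms reached 137, 134 and 137 CPM (log2 fold change 1.07 ± 0.048 (SE), adjusted p = 1.64e-24). In all 3 genes the lowest 36 h library was above the highest 18 h library. E2f2 rose from its low at 18 h to 75.4, 70.1 and 76.1 CPM (log2 fold change 1.28 ± 0.056 (SE), adjusted p = 9.96e-25), above all resting libraries in CPM. Rrm1, with 664, 653 and 659 CPM at 36 h, had a log2 fold change of 1.11 ± 0.036 (SE).

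Mcm2 was the gene called against the majority, with 385, 388 and 399 CPM at 18 h and 376, 363 and 354 CPM at 36 h (log2 fold change -0.10 ± 0.034 (SE), adjusted p = 0.00994). Its groups did not overlap, but the difference was small, and the call was lost without control 18 h replicate 3 (adjusted p = 0.0647) or control 36 h replicate 3 (adjusted p = 0.0865), with no filter on low counts (adjusted p = 0.0724) and without the 6 libraries high in the ribosomal locus transcript (adjusted p = 0.0565). Mcm5 had a log2 fold change of 0.12, called with all libraries and not without control 36 h replicate 1 (adjusted p = 0.0581). Mcm4 (0.19) and Mcm7 (0.26) were called higher, while Mcm3 (0.03) and Mcm6 (-0.06) did not pass the test. Helicase activators and licensing genes all rose, from 0.34 for Gins1 and 0.34 for Cdt1 to 0.86 for Cdc45, 0.88 for Cdc6 and 0.99 for Mcm10. Orc1 (0.55), Gins2 (0.43) and Gins3 (0.56) lay between.

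On the fork, Pola1 (0.83) and Lig1 (0.73) rose most, followed by Pole (0.54), Pcna (0.45), Fen1 (0.41), Rpa2 (0.38) and Prim1 (0.36). Rfc3 had 0.07 and was not called. Chaf1a (0.61), Slbp (0.52) and Chaf1b (0.20) rose. E2f1 had a log2 fold change of -0.04 and did not pass the test, with 40.4, 43.1 and 42.1 CPM at 18 h and 40.9, 38.3 and 42.6 CPM at 36 h, so E2f1 and E2f2 took different courses.

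**Figure D2:**
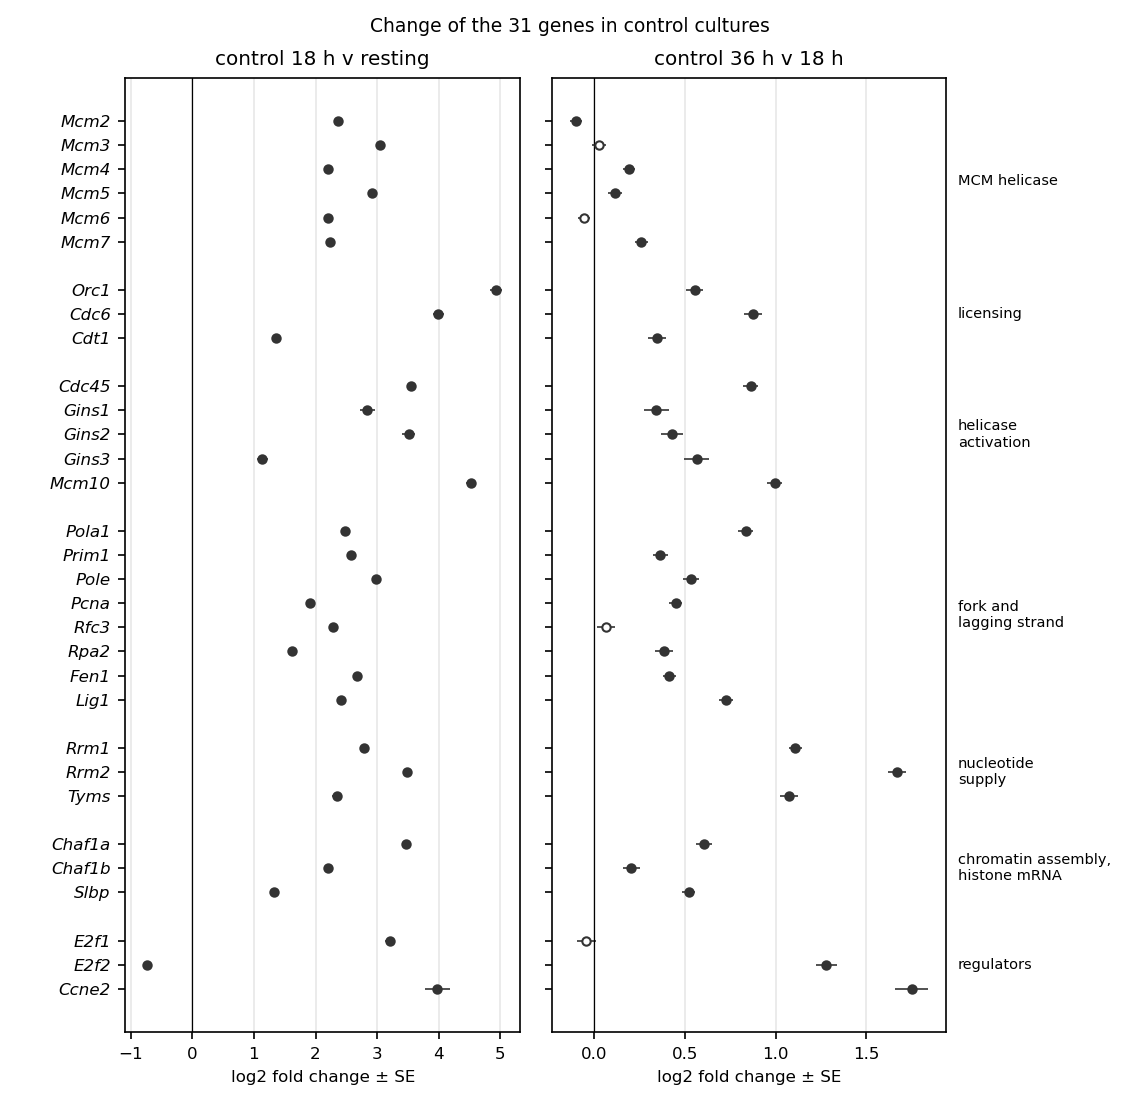
Log2 fold change ± SE of each of the 31 genes in control cultures, at 18 h against resting cells (left) and at 36 h against 18 h (right), with separate horizontal scales. Filled points were called at an adjusted p below 0.05 and open points were not; on the right the MCM genes lie near 0 while Ccne2 (1.75) and Rrm2 (1.67) lie farthest out.

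Levels per length, in TPM (transcript abundance scaled to a common sum), allow comparison between genes. Together the 31 genes made up 0.0890% ± 0.0023 (SD, n = 3) of all TPM at rest, 0.380% ± 0.0026 at 18 h and 0.517% ± 0.0052 at 36 h in controls. Pcna was the most abundant, with 159.9 ± 6.7 TPM at rest, 469.6 ± 5.1 TPM at 18 h and 638 ± 7.7 TPM at 36 h (SD, n = 3). Mcm6 followed, at 101, 423 and 407 TPM. At rest the least abundant were Orc1 (1.06 TPM), Ccne2 (1.48) and Mcm10 (1.95), and at 18 h E2f2 (11.6 TPM) and Gins3 (13.0).

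Partners within GINS, ribonucleotide reductase and CAF-1 came to other ratios after stimulation, whereas the MCM genes kept closer to theirs. The sum of Mcm2 to Mcm7 was 355 ± 12 TPM at rest, 1732 ± 13 at 18 h and 1797 ± 22 at 36 h, with Mcm6 highest each time. Mcm6 was 2.35 ± 0.26 times the lowest ring gene at rest, 2.02 ± 0.049 times at 18 h and 2.10 ± 0.072 times at 36 h. Within GINS, the ratio of Gins2 to Gins3 was 0.917 ± 0.24 at rest, 4.32 ± 0.40 at 18 h and 4.27 ± 0.24 at 36 h, so that Gins3 was the lowest of the 3 GINS genes in culture. For ribonucleotide reductase, the ratio of Rrm2 to Rrm1 was 0.460 ± 0.063 at rest, 0.772 ± 0.043 at 18 h and 1.13 ± 0.045 at 36 h. The Chaf1a to Chaf1b ratio was 0.346 ± 0.028 at rest and 0.886 ± 0.056 at 18 h, and its 36 h libraries lay at 1.18 to 1.22. The GINS, reductase and CAF-1 ratios each differed between rest and 18 h by more than the spread of their libraries. Those of the reductase and of CAF-1 also differed between 18 h and 36 h, whereas the GINS ratio did not.

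E2f2 depended on the scale used. In TPM it was 29.8 ± 0.60 at rest, 11.6 ± 1.2 at 18 h and 26.8 ± 1.0 at 36 h, so that its 36 h level was below rest in TPM (log2 difference -0.14, limma on log2(TPM + 1), adjusted p = 0.0812) and above rest in CPM (log2 fold change 0.55 ± 0.054, adjusted p = 7.41e-13 in edgeR's test). The mean transcript length that RSEM estimated for E2f2 was 3307 bases at rest, 4538 at 18 h and 4739 at 36 h, a ratio of 1.43 between 36 h and rest, whereas the ratio for the other 30 genes was 0.823 to 1.15. TPM are divided by this length and expected counts are not. The fall at 18 h was seen on both scales. E2f2 exceeded E2f1 9.26 ± 1.3-fold in TPM at rest, and their ratio was 0.428 ± 0.050 at 18 h and 1.02 ± 0.016 at 36 h.

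Other replication genes, from 6 lists of 68 genes, went largely the same way. Of the 68, 61 were higher and 4 lower at 18 h than at rest (median log2 fold change 1.65), 62 higher and 4 lower at 36 h than at rest (1.98), and 56 higher and 5 lower at 36 h than at 18 h (0.39). Over all genes, 40.9%, 42.4% and 25.6% were called higher in these comparisons, and 40.1%, 42.1% and 26.6% lower. Against rest at 36 h, the genes of smallest p in each list were Orc2 (2.18), Dbf4 (2.01) and Orc6 (2.85), Clspn (4.68), Tipin (3.37) and Ticrr (3.87), Rfc5 (2.99), Rfc1 (1.79) and Dna2 (3.68), Dut (3.30), Tk1 (2.81) and Dtymk (1.31), Uhrf1 (4.39), Dnmt1 (2.28) and Nasp (2.50), and Tfdp1 (3.07), Ccna2 (6.07) and Cdc25a (2.47).

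Of 11 origin and licensing genes, 10 were higher at 18 h, with the smallest p for Orc2 (log2 fold change 1.95), Orc6 (2.32) and Gmnn (2.64), the last encoding geminin, the inhibitor of Cdt1. Mcm9, a helicase homologue outside the replicative ring, was not called at 18 h (0.07) and was lower at 36 h than at rest (-0.24) and than at 18 h (-0.31). Dbf4, the activating subunit of the Cdc7 kinase, had the largest rise of the list from 18 h to 36 h (1.03), and Orc6 (0.53) and Gmnn (0.53) came next by p. Of 10 activation and fork protection genes, 9 were higher at 18 h, with the smallest p for Tipin (2.77), Topbp1 (1.47) and Clspn (3.58). Clspn (1.10), Ticrr (1.02) and Tipin (0.60) rose further by 36 h, and Donson (-0.02 at 18 h) was not called in any of the comparisons among controls.

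Among 19 polymerase, clamp loader and primer removal genes, 18 were higher at 18 h, with the smallest p for Pold2 (1.90), Pold1 (1.67) and Rfc1 (1.34). Pold4, the smallest subunit of polymerase delta, was lower at 18 h (-1.73) and at 36 h (-1.12) than at rest. From 18 h to 36 h, Rpa1 (0.56), Rfc5 (0.74) and Dna2 (0.72) had the smallest p of the 14 that rose, while Pole4 (-0.16) and Pold1 (-0.12) were lower. Of 6 nucleotide genes, 5 were higher at 18 h, with the smallest p for Dut (2.53), Dtymk (1.00) and Dctpp1 (3.15). Rrm2b, the reductase subunit known from the p53 response, was lower at 18 h (-0.78) and at 36 h (-0.46). Dut (0.78), Dck (0.74) and Tk1 (1.16) rose further.

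All 6 chromatin copying genes were higher at 18 h, with the smallest p for Uhrf1 (3.90), Nasp (2.20) and Dnmt1 (1.74). From 18 h to 36 h, the smallest p were those of Asf1b (0.95), Dnmt1 (0.54) and Uhrf1 (0.49). Of 16 E2F and cyclin regulators, 13 were higher at 18 h, among them Tfdp1 (2.57), the E2F dimer partner, and the phosphatase Cdc25a (1.99). Rbl2, which encodes the pocket protein p130 of resting cells, was lower at 18 h (-1.71) and at 36 h (-1.41), and Tfdp2 was lower at 18 h (-0.20). Ccna2 (2.12), Fbxo5 (1.56) and Ccne1 (1.43) had the smallest p from 18 h to 36 h, a step in which E2f6 (-0.43) and E2f5 (-0.25) were lower. For context, 15 of 15 genes of G2 phase and mitosis were higher in each comparison, with a median of 3.08 at 18 h and a further 2.06 by 36 h, where the smallest p were those of Ccnb2 (3.15), Tpx2 (2.12) and Birc5 (2.01).

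At 18 h each agonist group had slightly higher levels of replication genes than the control. The TNFR2 agonist gave 24 of 31 genes called higher (15.8% of all genes were called higher and 15.3% lower), the 4-1BB antibody 17 (12.7% and 13.1%), TL1A through DR3 16 (9.66% and 9.94%) and OX40L 18 (9.32% and 9.71%). None was called lower in edgeR's test in any of the 4 comparisons. At an unadjusted p under 0.05, 1 was lower with the TNFR2 agonist and 0 with the others, and DESeq2 and limma called 0 lower. Median log2 fold changes of the 31 were 0.22, 0.13, 0.15 and 0.15 in that order, beside -0.01 to 0.00 over all genes. The effects were small next to stimulation: over both times, all 248 log2 fold changes lay between -0.19 and 0.37. The 4 comparisons share their 3 control libraries.

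The flap nuclease gene Fen1 is an example of the larger differences, not of their typical size. Its value with the TNFR2 agonist was the highest of the 248 log2 fold changes. With each of the other agonists it was also above the median of the replication genes. Its control libraries had 142, 148 and 150.2 CPM, beside 195, 196 and 176 CPM with the TNFR2 agonist, 164, 177 and 176 with the 4-1BB antibody, 175, 169 and 167 with TL1A and 176 and 180.2 with OX40L. All 11 agonist libraries lay above all 3 controls. Log2 fold changes were 0.37 ± 0.038 (SE) with TNFR2, 0.23 ± 0.038 with 4-1BB, 0.21 ± 0.038 with DR3 and 0.28 ± 0.042 with OX40, at adjusted p of 3.42e-11, 2.40e-06, 2.66e-05 and 1.05e-06.

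Lig1, the ligase that seals lagging strand fragments, had 181, 192 and 194 CPM in controls. It had 240.4, 241 and 216 CPM with the TNFR2 agonist (log2 fold change 0.30 ± 0.038 (SE), adjusted p = 1.04e-08) and 239, 226 and 238 CPM with the 4-1BB antibody (log2 fold change 0.31 ± 0.038 (SE), adjusted p = 4.20e-09). With TL1A it had 212, 206 and 226 CPM (log2 fold change 0.18 ± 0.038 (SE), adjusted p = 0.000335) and with OX40L 231 and 228 CPM (log2 fold change 0.28 ± 0.042 (SE), adjusted p = 1.24e-06). No agonist library fell within the control range. The call with TL1A was lost without the 6 libraries high in the ribosomal locus transcript (adjusted p = 0.153).

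Mcm7, a ring subunit, had 322, 330.0 and 330.4 CPM in controls, 415, 419 and 368 CPM with the TNFR2 agonist (log2 fold change 0.29 ± 0.037 (SE), adjusted p = 7.81e-09) and 394, 368 and 374 CPM with the 4-1BB antibody (log2 fold change 0.21 ± 0.036 (SE), adjusted p = 9.02e-06). Mcm10 had 67.8, 69.4 and 69.7 CPM in controls and 82.5, 77.5 and 83.1 CPM with TL1A (log2 fold change 0.23 ± 0.044 (SE), adjusted p = 7.29e-05). Mcm3 had 487, 502 and 499.8 CPM in controls and 576 and 610.2 CPM with OX40L (log2 fold change 0.26 ± 0.043 (SE), adjusted p = 8.54e-06). In these comparisons every agonist library was higher than every control in CPM. With limma on log2(TPM + 1), Mcm10 was not called with TL1A (log2 difference 0.10, adjusted p = 0.442). Mcm7 overlaps Cops6, Ap4m1 and a microRNA cluster, and Fen1 overlaps Tmem258, and the library kit does not mark strand, so reads of the overlapping parts could be shared.

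By role, the helicase activators had the highest group medians in counts (0.32, 0.21, 0.22 and 0.24 with the TNFR2, 4-1BB, DR3 and OX40 agonists), with 4, 4, 4 and 3 of 5 called higher. The exception among them was Gins3, with log2 fold changes of -0.16, -0.00, -0.10 and -0.15, none called. This ranking is given for counts only. With limma on log2(TPM + 1), Gins1, Gins2 and Mcm10 were not called with the 4-1BB antibody (adjusted p = 0.0927, 0.398 and 0.157). Nor were they with TL1A (adjusted p = 0.127, 0.66 and 0.442), while Cdc45 kept its call with both. All 6 MCM genes were called with the TNFR2 and OX40 agonists, 4 with the 4-1BB antibody and 3 with TL1A. Of the 8 fork genes, 6, 5, 4 and 5 were called. Pcna (0.04 to 0.09) and Prim1 (0.06 to 0.09) were not called with any agonist, nor were Orc1 (0.01 to 0.12), Slbp (-0.01 to 0.04) and Chaf1b (-0.01 to 0.09). Ccne2 went from -0.10 with the TNFR2 agonist to 0.21 with TL1A and was not called in any comparison. The negative value holds for counts only. Its mean TPM was 19.91 in controls and 22.46, 24.88, 23.95 and 25.24 with the TNFR2, 4-1BB, DR3 and OX40 agonists.

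The ribosomal locus transcript differed along the same comparison: it stood at 10090, 26290 and 8029 CPM in the 18 h controls and between 1407 and 12030 CPM in the 11 agonist libraries of that time. Without the 6 libraries above 10000 CPM, which leaves 1 control at 18 h that is assumed to vary like the other groups, the counts of genes called higher became 14, 7, 4 and 9, and the medians over the 31 genes 0.19, 0.13, 0.14 and 0.14. With that transcript's log2 CPM as a covariate, an alternative chosen after seeing the data, the medians were 0.21, 0.13, 0.16 and 0.15. Erythroid Hbb-bs was called lower with each agonist at 18 h, and the sum of the 4 erythroid markers lay at 0.392 to 0.814 CPM in the control libraries and at 0 to 0.172 CPM under agonists. No B cell, myeloid or CD8 T and NK cell marker was called in these comparisons. In the single libraries, the log2 ratio to the control mean was taken as a median over the 31 genes. It was -0.03 to 0.01 in the 18 h controls and 0.10 to 0.26 in the 11 agonist libraries, which did not overlap. That mean includes the controls themselves, which narrows their spread, and all agonist libraries share it.

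**Figure D3:**
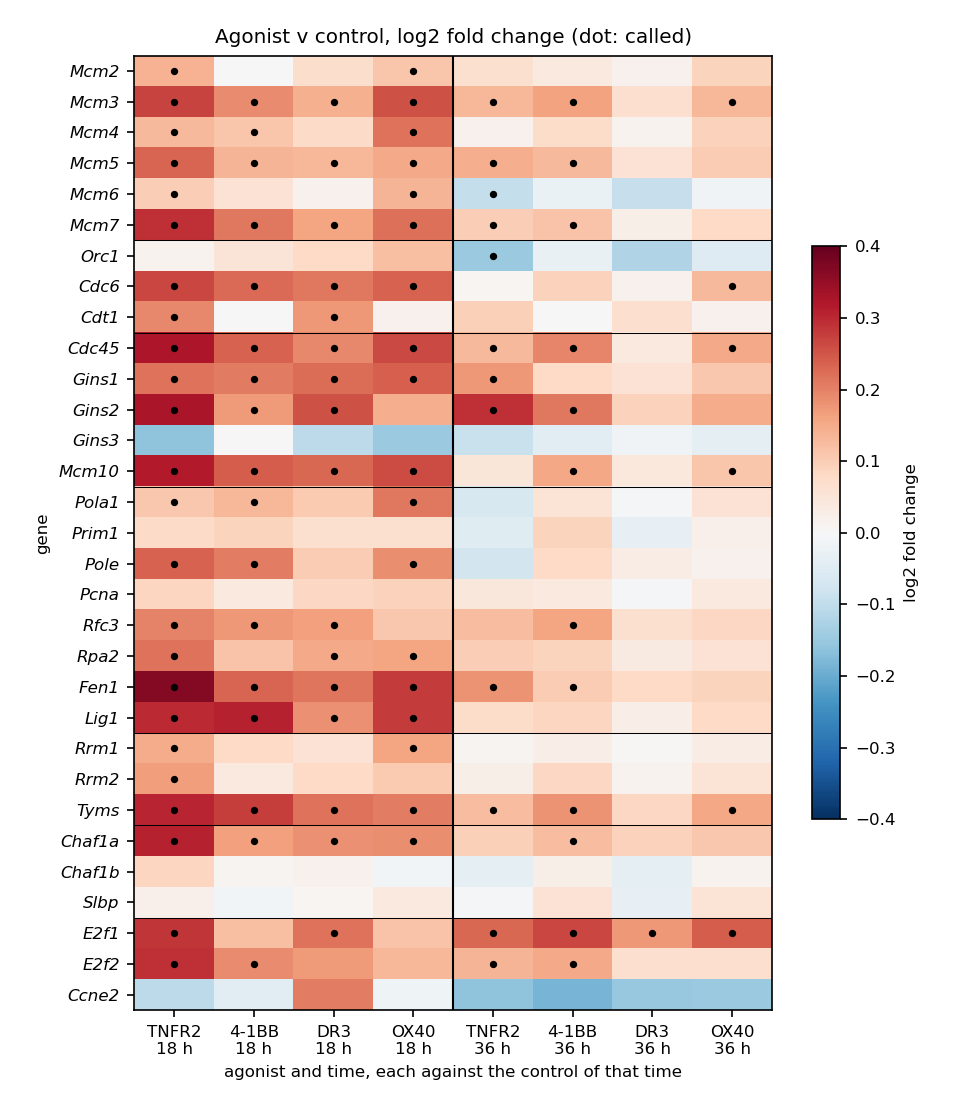
Log2 fold change of the 31 genes (rows, with lines between role groups) for each agonist against the control of the same time (columns, 18 h left and 36 h right), on a colour scale from -0.4 to 0.4. Dots mark genes called at an adjusted p below 0.05; at 18 h, 16 to 24 genes per column are marked, and at 36 h 1 to 12.

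At 36 h fewer replication genes were called. The 4-1BB antibody gave 12 higher and 0 lower (10.9% and 11.5% of all genes), the TNFR2 agonist 10 higher and 2 lower (13.0% and 11.9%), OX40L 6 higher and 0 lower (7.12% and 6.21%) and TL1A 1 higher and 0 lower (6.97% and 6.39%). Beside the 0 genes called lower by edgeR, 1, 0 and 2 were lower at an unadjusted p under 0.05 with the 4-1BB antibody, OX40L and TL1A, and DESeq2 and limma called 0. With TL1A, 1 of 31 genes is a smaller share than that of all genes called higher. The 2 genes lower with the TNFR2 agonist are likewise a smaller share than that of all genes called lower. Medians over the 31 genes were 0.09 for 4-1BB, 0.07 for TNFR2, 0.08 for OX40 and 0.03 for DR3, beside -0.0046 to 0.0024 over all genes.

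E2f1 had the smallest p at 36 h with the 4-1BB, DR3 and OX40 agonists. It had 40.9, 38.3 and 42.6 CPM in the controls, which all 4 comparisons share, 48.6, 48.4 and 45.8 CPM with the TNFR2 agonist (log2 fold change 0.23 ± 0.051 (SE), adjusted p = 0.000488) and 47.6, 48.8 and 50.2 CPM with the 4-1BB antibody (log2 fold change 0.27 ± 0.050 (SE), adjusted p = 4.08e-05). With TL1A it had 46.6, 46.9 and 43.9 CPM (log2 fold change 0.17 ± 0.050 (SE), adjusted p = 0.0118) and with OX40L 47.8, 45.8 and 50.3 CPM (log2 fold change 0.24 ± 0.050 (SE), adjusted p = 0.000337). All agonist libraries were above the highest control. The call with TL1A was lost without control 36 h replicate 2 (adjusted p = 0.115), DR3 replicate 1 (adjusted p = 0.0723) or DR3 replicate 2 (adjusted p = 0.0583).

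With the TNFR2 agonist, Gins2 had 50.8, 59.3 and 51.5 CPM at 36 h, beside 46.5, 41.3 and 44.2 CPM in controls (log2 fold change 0.29 ± 0.058 (SE), adjusted p = 9.70e-05). Fen1 had 226, 220.0 and 219 CPM, beside 202, 192 and 193 CPM (log2 fold change 0.18 ± 0.036 (SE), adjusted p = 0.000151). Neither gene's groups overlapped in CPM. With limma on log2(TPM + 1), Gins2 was not called (log2 difference 0.16, adjusted p = 0.441). Cdc45, the helicase cofactor, had 97.0, 89.4 and 96.0 CPM in controls, 108, 108 and 107 CPM with the 4-1BB antibody (log2 fold change 0.19 ± 0.038 (SE), adjusted p = 9.49e-05) and 106, 105 and 102 CPM with OX40L (log2 fold change 0.15 ± 0.038 (SE), adjusted p = 0.00397). Mcm3 had 518, 496 and 504 CPM in controls and 568, 568 and 559.9 CPM with the 4-1BB antibody (log2 fold change 0.16 ± 0.038 (SE), adjusted p = 0.00124). Tyms had 137, 134 and 137 CPM in controls and 152, 158 and 146 CPM with OX40L (log2 fold change 0.15 ± 0.044 (SE), adjusted p = 0.0123). In each of these comparisons the agonist libraries were above the controls. Limma on log2(TPM + 1) did not call Mcm3 with the 4-1BB antibody (adjusted p = 0.0911). Nor did it call Cdc45 (adjusted p = 0.12) or Tyms (adjusted p = 0.193) with OX40L. Without control 36 h replicate 2, Cdc45 (adjusted p = 0.0706) and Tyms (adjusted p = 0.0537) were not called with OX40L, and Tyms was also lost without OX40 replicate 2 (adjusted p = 0.0847).

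The 2 genes called lower with the TNFR2 agonist at 36 h were Orc1, with 58.8, 58.0 and 58.3 CPM beside 62.8, 67.2 and 64.0 CPM in controls (log2 fold change -0.15 ± 0.046 (SE), adjusted p = 0.0137), and Mcm6, with 629, 608 and 617 CPM beside 669, 648 and 662 CPM (log2 fold change -0.09 ± 0.034 (SE), adjusted p = 0.0341). Their groups did not overlap. The Orc1 call was lost without control 36 h replicate 2 (adjusted p = 0.114) or TNFR2 replicate 2 (adjusted p = 0.052), and the Mcm6 call without any 1 of the 6 libraries compared (adjusted p = 0.0553 to 0.147). Without control 36 h replicate 2, the counts of genes called higher at 36 h were 5 with TNFR2, 7 with 4-1BB, 0 with DR3 and 1 with OX40. The TNFR2 count was 6 without TNFR2 replicate 1 or 2, the DR3 count 0 without DR3 replicate 1 or 2, and the OX40 count 3 without control 36 h replicate 3 or OX40 replicate 1. A gene was called lower with 4-1BB without control 36 h replicate 3 and with DR3 without DR3 36 h replicate 3, 1 in each case. Single-library medians, again against a mean that includes the controls, were -0.02 to 0.03 in controls and 0.02 to 0.09 with agonists. DR3 replicates 2 and 3 lay within the control range. Ccne2 had log2 fold changes of -0.16, -0.19, -0.15 and -0.15 with the TNFR2, 4-1BB, DR3 and OX40 agonists, none called.

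**Figure D4:**
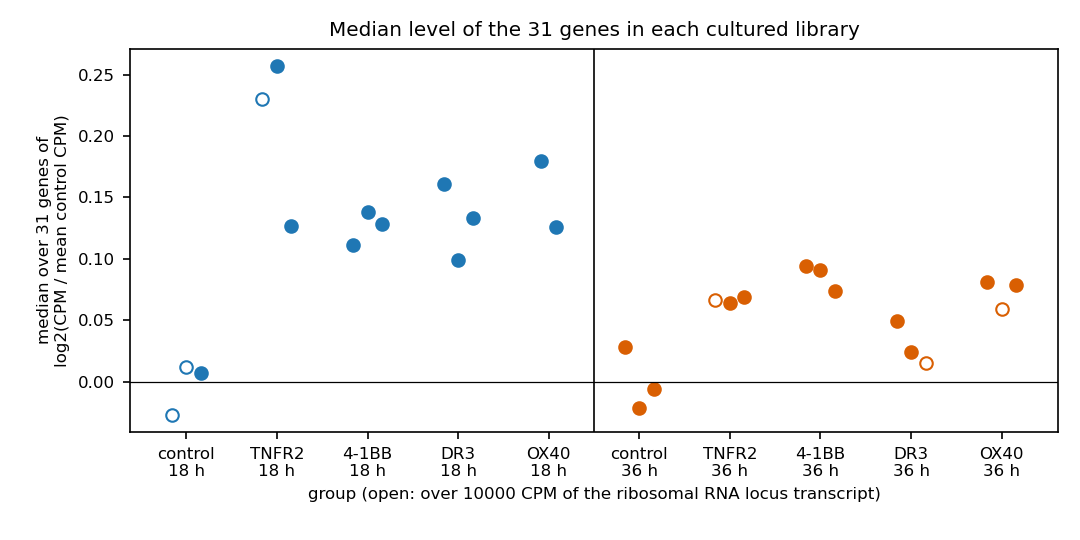
Median over the 31 genes of the log2 ratio of a library's CPM to the mean control CPM of the same time (vertical axis), 1 point per cultured library, by group. Each control library is part of that mean. Open points are the 6 libraries above 10000 CPM of the ribosomal locus transcript; the 18 h agonist libraries lie at 0.10 to 0.26, above the 18 h controls, and the 36 h ones at 0.02 to 0.09.

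Whether the agonist effect itself differed between 36 h and 18 h was tested as an interaction. For the TNFR2 agonist, 9 of 31 genes had a lower effect at 36 h than at 18 h and 0 a higher one (3.01% and 3.68% of all genes). For 4-1BB there were 1 and 0 (2.03% and 2.34%), for OX40 2 and 0 (1.38% and 2.10%) and for DR3 0 and 0 (1.10% and 1.22%). The 1 gene of 31 for 4-1BB is near the share of all genes. For DR3, 9 genes had a lower effect at an unadjusted p under 0.05, and DESeq2 called 1 and limma 0. A higher effect was not called by edgeR, DESeq2 or limma for any agonist, and at an unadjusted p under 0.05 there was 1 such gene for 4-1BB and 0 for the others.

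Pole had the smallest p for the TNFR2 agonist (difference of log2 fold changes -0.31 ± 0.062 (SE), adjusted p = 0.000615). At 18 h it had 177, 201 and 169 CPM with the agonist and 149.5, 156 and 159 CPM without, and at 36 h 209, 204 and 226 CPM with and 227, 227 and 218 CPM without, so it was above the controls at 18 h and overlapped them at 36 h. Mcm10 followed (difference -0.27 ± 0.058 (SE), adjusted p = 0.00167), with 84.3, 92.7 and 81.0 CPM at 18 h and 138, 143 and 145 CPM at 36 h under the agonist and 140.4, 136 and 136 CPM in 36 h controls. The other 7 were Lig1, Mcm6, Cdc6, Mcm7, Fen1, Chaf1a and Cdc45. Lig1 was called for 4-1BB (difference -0.22 ± 0.053, adjusted p = 0.00509) and OX40 (difference -0.20 ± 0.056, adjusted p = 0.0325). Its 36 h libraries had 314, 322 and 303 CPM in controls, 341, 333 and 323 CPM with the 4-1BB antibody and 334, 330.2 and 327 CPM with OX40L, closer to each other than at 18 h. Fen1 was called for OX40 (difference -0.19 ± 0.056, adjusted p = 0.0410), with 207, 206 and 211 CPM at 36 h.

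Without the 6 libraries above 10000 CPM of the ribosomal locus transcript, 0 genes were called for TNFR2, 4-1BB or OX40. The TNFR2 count was 5, 3 and 17 without TNFR2 18 h replicates 1, 2 and 3. The OX40 count was 0 without control replicate 1 or 2 of either time, without OX40 18 h replicate 2 or without OX40 36 h replicate 2 or 3, 1 without OX40 36 h replicate 1, and 4 without OX40 18 h replicate 1. For DR3, 1 gene was called without DR3 18 h replicate 2 or 3.

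A joint test of differences among the 4 agonists called 8 genes at 18 h (14.3% of all genes were called) and 1 at 36 h (9.06%). The 8 were Cdt1 (adjusted p = 0.00544), Fen1, Mcm2, E2f1, Mcm4, Lig1, Mcm7 and Chaf1a, the last at an adjusted p of 0.0494. Cdt1 had 97.4, 102 and 92.8 CPM with the TNFR2 agonist and 96.3, 95.1 and 97.2 CPM with TL1A, and lower values of 88.3, 82.4 and 85.1 CPM with the 4-1BB antibody and 89.6 and 83.2 CPM with OX40L. Its mean TPM lay closer together, at 85.65, 87.9, 79.13 and 82.73 in that order, beside 81.71 ± 8.3 (SD) in controls. Against controls, limma on log2(TPM + 1) did not call Cdt1 with the TNFR2 agonist (adjusted p = 0.547) or TL1A (adjusted p = 0.37). Mcm2 had 437, 445 and 411 CPM with the TNFR2 agonist and 420.2 and 424 CPM with OX40L, beside 389, 383 and 400.5 CPM with the 4-1BB antibody, which lay near the controls. At 36 h, 1 of 31 genes is a smaller share than that of all genes called. That gene was Cdc45 (adjusted p = 0.0264), with 104, 102 and 104 CPM for TNFR2, 108, 108 and 107 for 4-1BB, 97.4, 96.0 and 96.8 for DR3 and 106, 105 and 102 for OX40. Since doses were not matched, these are differences between the cultures as treated. Leaving out 1 library moved the 18 h count to between 2 and 15, the lowest without TNFR2 replicate 2 and the highest without TNFR2 replicate 3. It was 3 without TNFR2 replicate 1, 4-1BB replicate 1 or 3 or OX40 replicate 2, and 4 without 4-1BB replicate 2 or DR3 replicate 1 or 2. The 36 h count was 0 without any 1 of the 4-1BB or DR3 libraries and 2 without TNFR2 replicate 1 or 3.

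**Figure D5:**
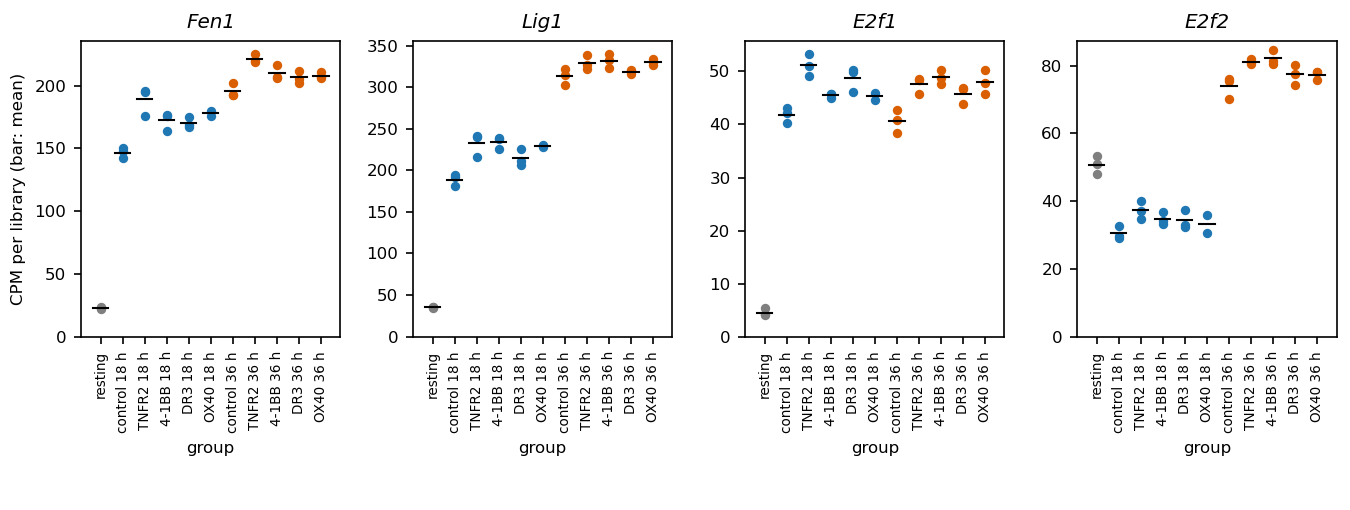
CPM (vertical axes, from 0) of Fen1, Lig1, E2f1 and E2f2 in every library of the 11 groups, 1 point per library, with the group mean as a bar. Fen1 and Lig1 rise from rest to 18 h and 36 h with the agonist groups above the 18 h control, E2f1 overlaps between control times (40.4 to 43.1 CPM and 38.3 to 42.6 CPM), and E2f2 falls at 18 h before it rises.

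Of the 68 other replication genes, 27, 17, 19 and 10 were higher and 3, 4, 1 and 0 lower at 18 h with the TNFR2, 4-1BB, DR3 and OX40 agonists, and 9, 12, 2 and 4 higher and 6, 4, 1 and 1 lower at 36 h. Over all genes, 15.8%, 12.7%, 9.66% and 9.32% were called higher and 15.3%, 13.1%, 9.94% and 9.71% lower at 18 h. At 36 h, 13.0%, 10.9%, 6.97% and 7.12% were called higher and 11.9%, 11.5%, 6.39% and 6.21% lower. The share of the 68 called higher at 36 h was near that of all genes with the TNFR2 agonist and below it with TL1A and OX40L. Of the 15 genes of G2 phase and mitosis, 14, 8, 1 and 6 were higher at 18 h in the same order (median log2 fold changes 0.29, 0.17, 0.15 and 0.17). At 36 h, 1 was higher and 1 lower with the TNFR2 agonist, and 0 were called with the others. The TNFR2 agonist's effect on 7 of the 15 was lower at 36 h than at 18 h in the interaction test, beside 3.01% of all genes.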

How the data were processed

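Per the labels, RNA of the Foxp3-GFP+ Tregs was purified by NucleoSpin RNA XS, and libraries were built by SMART-Seq v4, a chemistry for low input that leaves reads unstranded. Tools and build named in the submitters' processing notes are RSEM 1.2.28, STAR 2.5.3a, Trimmomatic, FastQC and mm10, and annotation release and strand option were not given in the sources used here. For each library the authors deposited an RSEM table of expected counts, that is, estimated reads per gene with no scaling for depth or length, and TPM, which the authors' RSEM run scaled for length to the same sum in each library. The 32 libraries form 11 groups, taken from the labels.

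Expected counts were rounded and tested in edgeR 4.0.16 (R 4.3.3): filterByExpr by group, TMM, 1 mean per group over all 32 libraries (21 residual degrees of freedom, common dispersion 0.00162), robust quasi-likelihood F tests, Benjamini-Hochberg adjustment over 14313 genes, called below 0.05. Standard errors come from the F statistics; CPM are scaled by TMM-adjusted totals. Gene overlaps come from GENCODE M21 on mm10 (GRCm38), joined by transcript identifiers, and promoters from RefSeq (GRCm38.p6).

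The members and lists were chosen with earlier results of these data known. All 31 members are named. Library values are given for the largest and smallest change at 18 h per role, the 3 of smallest p per agonist comparison, members called against the majority and the 2 of smallest p per interaction; of other lists, up to 3 of smallest p and those called against their list. Cdt1, Mcm2 and Cdc45 in the joint tests, and Gins3, Pcna and others named as not called, were chosen after their values were seen. Of the genes first listed, 3 that are no members are not reported here, and counts and sums over their lists leave them out. Alternatives were RLE factors, no TMM, no or a stricter filter (at least 10 CPM in 3 libraries), a replicate block, only the groups compared, DESeq2 1.42.0, limma 3.58.1 on log2(TPM + 1), leaving out each library of the groups compared, leaving out the 6 libraries high in the ribosomal locus transcript and, added after seeing the data, that transcript as a covariate.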

Additional observations from a re-analysis of the deposited data

Results flagged for a closer look

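For 12 results, the effect of an agonist on a gene differed between 36 h and 18 h in edgeR's test of that difference, adjusted over all 14313 genes; values are the log2 effect at 36 h minus that at 18 h ± SE. With the TNFR2 agonist these were Mcm6 (-0.19 ± 0.048, adjusted p = 0.00700), Mcm7 (-0.19 ± 0.051, adjusted p = 0.0124), Cdc6 (-0.26 ± 0.068, adjusted p = 0.0108), Cdc45 (-0.19 ± 0.058, adjusted p = 0.0345), Mcm10 (-0.27 ± 0.058, adjusted p = 0.00167), Pole (-0.31 ± 0.062, adjusted p = 0.000615), Fen1 (-0.19 ± 0.052, adjusted p = 0.0193), Lig1 (-0.23 ± 0.053, adjusted p = 0.00388) and Chaf1a (-0.21 ± 0.060, adjusted p = 0.0195). With the 4-1BB antibody the gene was Lig1 (-0.22 ± 0.053, adjusted p = 0.00509), and with OX40L the genes were Fen1 (-0.19 ± 0.056, adjusted p = 0.0410) and Lig1 (-0.20 ± 0.056, adjusted p = 0.0325). All 12 differences were negative, so each effect was lower at 36 h. Under the alternatives, none changed sign, and each was lost in 1 to 13 of its 21 or 22 alternatives, in every case without the 6 libraries high in the ribosomal locus transcript (adjusted p there 0.115 to 0.614).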

How the results depend on the processing

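Against rest, the counts of genes called kept within 1 of 30 and 31 under every alternative run. Single genes were followed under the alternatives only where the main edgeR test had called them, so sign changes of uncalled values are not counted here. Of these 3364 values, 2997 kept their direction and call, 365 lost the call and 2 changed sign. Both sign changes came with limma on log2(TPM + 1): E2f2 at 36 h against rest (-0.14) and Mcm7 with the TNFR2 agonist at 36 h (-0.008). Without TMM, the median over all genes moved to -0.11 at 18 h and -0.13 at 36 h against rest, and all calls of the 31 against rest kept their direction. The stricter filter left 9458 genes. Counts that moved by over 1.5 times follow, and the cause of these moves was not tested.

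With limma on log2(TPM + 1), genes called higher at 18 h were 15 (TNFR2), 9 (4-1BB) and 5 (DR3); at 36 h, 3 higher and 1 lower (TNFR2), 3 (4-1BB), 0 (DR3) and 1 (OX40); interactions 3 (TNFR2) and 1 (OX40); joint tests 2 and 0. Without the 6 libraries, counts were 14, 7, 4 and 9 at 18 h, 4 higher and 1 lower for TNFR2 at 36 h, 0 for Mcm2's fall and for the TNFR2, 4-1BB and OX40 interactions, and 1 and 0 in the joint tests. With the covariate, they were 6 higher and 1 lower for TNFR2 and 2 for OX40 at 36 h, and 0 for the OX40 interaction. Without TMM, 36 h counts were 6 higher (TNFR2), 2 lower (DR3) and 3 higher (OX40). With no filter, Mcm2's fall was lost (0), TNFR2 at 36 h had 5, 1 gene each was lower with 4-1BB, DR3 and OX40, the DR3 interaction had 1 and the 36 h joint test 2. DESeq2 gave 6 for TNFR2 at 36 h, 1 for the DR3 interaction and 2 and 6 in the joint tests. With only the groups compared, 1 was lower with 4-1BB, 2 higher and 1 lower with DR3 at 36 h, 1 for its interaction, and the joint tests gave 1 and 7.

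Leaving out 1 library of the groups compared gave 0 to 1 for genes lower from 18 h to 36 h. At 36 h it gave 5 to 9 higher and 0 to 1 lower for TNFR2, 7 to 12 and 0 to 1 for 4-1BB, 0 to 1 and 0 to 1 for DR3, and 1 to 6 higher for OX40. Interactions ranged over 3 to 17 (TNFR2), 0 to 1 (DR3) and 0 to 4 (OX40), and the joint tests over 2 to 15 and 0 to 2.

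Deviations of same-numbered libraries correlated at -0.167 to 0.161 (155 pairs, median -0.0085). Those of differently numbered libraries correlated at -0.127 to 0.134 (310 pairs, median 0.0051). These values cannot show whether the replicate numbers pair the samples, which no label states. With the replicate block, the OX40 interaction count was 1 and the 18 h joint count 3, and no other count moved by over 1.5 times. The lone control left at 18 h without the 6 libraries, and 2 OX40 libraries at 18 h, limit the agonist comparisons; effects there were at most 0.37 on the log2 scale.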
